A study of Homo sapiens with 5 samples.

Results

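The enzymes that build heme and the transporter ABCB10 were examined in bulk RNA-seq of HUDEP-2 cells, 3 libraries labelled ERF knockout against 2 labelled wild type. The 9 genes were chosen by symbol as enzymes of the pathway in its order plus ABCB10, and all 9 were found among the 11976 genes of the authors' deposited table. HUDEP-2 is an immortalised human line of erythroid progenitors that came from umbilical cord blood. ERF is an ETS-domain transcriptional repressor, and the series asks what its inactivation does to γ-globin. The titles of the wild-type libraries carry the letters SCR, which the labels do not explain, and the labels name neither the edit, the number of clones nor the stage of culture. The name of the authors' comparison carries the letters Pre, whose meaning was not established here.

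Heme is made by a chain of enzymes that begins and ends in the mitochondrion. ALAS joins glycine and succinyl-CoA, cytosolic enzymes, among them ALAD, UROS and UROD, assemble and trim the porphyrin ring, and CPOX, PPOX and FECH oxidise it and insert iron back in the mitochondrion. ALAS1 is the housekeeping form of the first enzyme and ALAS2 the erythroid form, the step that sets the supply of heme for hemoglobin.

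The table holds the authors' comparison and 0 columns of values per library, so no level per library can be given, the depth of each library is unknown, and each member is described by its mean log2 CPM (CPM is reads of the gene scaled to the size of its library; the mean is over all libraries), its log2 fold change and a standard error derived from the F statistic. Its header names no reference group. The sign was set so that the γ-globin gene HBG2 is higher in the knockout, after the series title, and every higher or lower below rests on that. In this orientation ERF RNA itself was 0.89 higher on the log2 scale in the libraries labelled knockout in the authors' deposited table (derived standard error 0.07, edgeR adjusted p = 6.44e-06), which goes against the knockout label as far as RNA abundance bears on it. With the opposite sign each direction is exchanged, while sizes, p-values and which members moved together stay as given. The labels do not say whether libraries of a group were separate cultures, so the p-values cover no more than the variation among these libraries, part of which may be technical. All 14 erythroid marker genes listed were measured, and the authors' deposited table gives a mean of 12.48 log2 CPM for HBB and 7.36 log2 CPM for GATA1. Of markers of other lineages, 1 of 7 megakaryocyte genes, 1 of 8 granulocyte and monocyte genes and 1 of 7 lymphoid genes were measured (ITGA2B, LYZ and PTPRC), none of which passed the threshold, and the others were not analysed here. The authors' deposited table gives means of 7.26 log2 CPM for ITGA2B, near that of GATA1, 5.95 log2 CPM for PTPRC and 0.48 log2 CPM for LYZ.

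Short stretches upstream of RefSeq gene starts are shown because ERF binds ETS motifs with a GGAA core and because erythroid genes are commonly controlled by GATA1. Promoter windows of 250 bases before to 50 bases after a start (GRCh38.p14) matched 8 of the 9 members, in 10 windows. The letters GATAA, on either strand, were found for 4 members (ALAS2, CPOX, PPOX and ABCB10), against 26.6% of 27305 genes with a window. The letters CCGGAA, on either strand, were found for 1 member, ALAD, against 20.1% of genes. The shorter core GGAA was not searched for by itself. It or its reverse complement TTCC also occurs without capitals in the ALAS2 and CPOX stretches below, so ALAD is not the only member with the core. Capitals mark GATAA and CCGGAA or their reverse complements, TTATC and TTCCGG, and each stretch runs 5′ to 3′ on the strand of its gene.
ALAS2 upstream, chrX:55030983-55031124, minus strand: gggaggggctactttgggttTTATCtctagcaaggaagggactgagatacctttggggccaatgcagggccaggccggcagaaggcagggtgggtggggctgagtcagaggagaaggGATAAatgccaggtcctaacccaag
CPOX upstream, chr3:98593712-98593838, minus strand: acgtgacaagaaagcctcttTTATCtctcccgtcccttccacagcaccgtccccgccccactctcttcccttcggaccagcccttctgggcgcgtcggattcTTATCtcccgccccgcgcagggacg
ABCB10 upstream, chr1:229558767-229558811, minus strand: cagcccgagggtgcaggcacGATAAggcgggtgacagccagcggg
PPOX, before the second of its starts, chr1:161166571-161166599, plus strand: agggtgtggcccTTATCtgcacccagcag
ALAD upstream, chr9:113401285-113401329, minus strand: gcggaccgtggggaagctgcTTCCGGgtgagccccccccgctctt
ALAS2 iron-responsive element, chrX:55030944-55030969, minus strand: ttcgttCgtcctCAGTGcagggcaac

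The last of these sequences lies in the first exon of ALAS2 and is the hairpin by which iron regulatory proteins hold back translation of its mRNA. Its capitals mark the bulged C and the CAGTG loop of the pattern searched, a C, any 5 bases, CAGTG and 1 further base, on the sense strand only. That loose pattern was present in 10.1% of all 35116 windows and in 1 member. Matches start at positions -127 and -30 from the start of ALAS2, at -207 and -125 for CPOX, at -84 for ABCB10, at -63 from the second start of PPOX and at -25 for ALAD. The members with GATAA were not uniform in the comparison: ALAS2 was higher, PPOX and ABCB10 were lower, and CPOX did not pass the threshold. These letters are a description of the windows and do not show that a factor binds there.

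Across the pathway the members split by direction. In the libraries labelled knockout, both forms of the first enzyme, ALAS1 and ALAS2, and the cytosolic decarboxylase UROD were higher by 1.11-fold to 1.26-fold. ALAD, the second enzyme, the final enzymes PPOX and FECH, and ABCB10 were lower by 1.24-fold to 1.47-fold. UROS and CPOX did not pass the threshold. In bulk RNA, fewer cells that express a gene and less RNA of it per cell cannot be told apart. In all, 7 of 9 members had an adjusted p below 0.05 (edgeR, Benjamini-Hochberg over the whole table), 3 higher and 4 lower, in a table where 50.9% of all genes did so, 24.9% higher and 25.9% lower. No member reached a 2-fold change. The median log2 fold change was -0.03 over the 9 members and -0.0019 over all genes, and the median absolute log2 fold change was 0.31 over the members and 0.21 over all genes. Within the range of mean expression that the members span, 5383 genes had a median absolute log2 fold change of 0.17, and 56.4% of them were called.

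**Figure D1:**
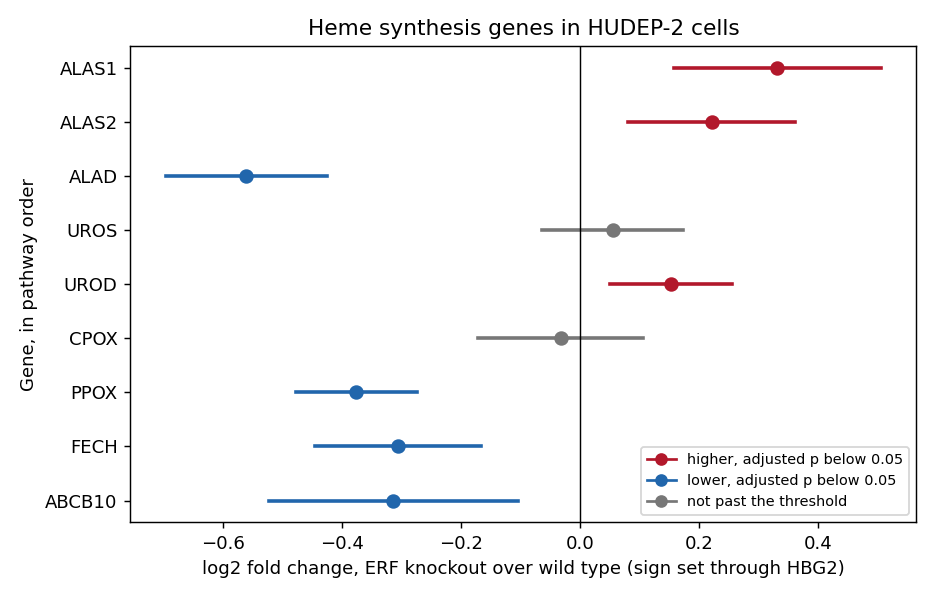
Log2 fold change (ERF knockout over wild type, sign set through HBG2) of the 9 genes in pathway order from top to bottom; points are the values of the authors' deposited table and lines are derived 95% intervals. ALAS1, ALAS2 and UROD lie right of 0, ALAD, PPOX, FECH and ABCB10 lie left of it, and the intervals of UROS and CPOX include 0.

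ALAS1 (ENSG00000023330, chromosome 3), the first enzyme in all tissues, was higher. Its log2 fold change was 0.33, with a derived standard error (SE) of 0.08 and a 95% interval of 0.16 to 0.51 (edgeR adjusted p = 0.00527, from the authors' deposited table). ALAS2 (ENSG00000158578, chromosome X), the erythroid form, stood at 0.22 (SE 0.06, interval 0.08 to 0.36, edgeR adjusted p = 0.0142, from the authors' deposited table). The intervals of these isozymes overlap, and the difference between them was not tested. Their levels differed more than their changes did. Per kilobase of annotated exon, mean expression was 6.86 log2 CPM for ALAS2 and 3.46 log2 CPM for ALAS1, a 10.6-fold higher level of the erythroid form over all libraries together.

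ALAD (ENSG00000148218, chromosome 9), which joins molecules of aminolevulinic acid into porphobilinogen, was 1.47-fold lower, with a log2 fold change of -0.56 (SE 0.06, interval -0.70 to -0.43, edgeR adjusted p = 4.78e-05, from the authors' deposited table). This size exceeded that of 87.6% of all genes of the table. UROS (ENSG00000188690, chromosome 10), which closes the ring, did not pass the threshold and stood at 0.05 (interval -0.06 to 0.17, edgeR adjusted p = 0.416, from the authors' deposited table). UROD (ENSG00000126088, chromosome 1), which removes carboxyl groups from uroporphyrinogen, was 1.11-fold higher, at 0.15 (SE 0.05, interval 0.05 to 0.25, edgeR adjusted p = 0.0183, from the authors' deposited table). UROD had the smallest change of the called members, below that of the median gene, and its call was lost with fold changes centred on genes of at least 5 log2 CPM (0.12, adjusted p = 0.0531, with a range of 0.0172 to 0.0531 over the alternatives that adjust p).

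The mitochondrial steps that finish heme were lower or not past the threshold. CPOX (ENSG00000080819, chromosome 3), which makes protoporphyrinogen, had a log2 fold change of -0.03 (interval -0.17 to 0.11, edgeR adjusted p = 0.681, from the authors' deposited table). PPOX (ENSG00000143224, chromosome 1), which oxidises that product to protoporphyrin, was 1.30-fold lower, at -0.38 (SE 0.05, interval -0.48 to -0.27, edgeR adjusted p = 9.37e-05, from the authors' deposited table). Its exons share 24.3% of their bases with B4GALT3 on the opposite strand (GENCODE 29), and no source used here states whether the counting used strand. B4GALT3 stood at -0.04 in the authors' deposited table (edgeR adjusted p = 0.616). FECH (ENSG00000066926, chromosome 18), ferrochelatase, which inserts iron, was 1.24-fold lower, at -0.31 (SE 0.06, interval -0.45 to -0.17, edgeR adjusted p = 0.00237, from the authors' deposited table).

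ABCB10 (ENSG00000135776, chromosome 1) is an ATP-binding cassette protein of the inner mitochondrial membrane that, in mouse erythroid cells, stabilises the iron importer mitoferrin. It was 1.24-fold lower, at -0.31, and had the widest error of the members (SE 0.09, interval -0.52 to -0.10, edgeR adjusted p = 0.0179, from the authors' deposited table). It was also the member with the highest mean expression before correction for length, which the authors' deposited table gives as 8.57 log2 CPM. GENCODE 29 names 3 pseudogenes of ABCB10 and 1 of FECH, and the table has a class of reads not uniquely aligned, so both values are uncertain where copies share sequence. The derived intervals of the 4 lower members overlap one another, and differences among these members were not tested.

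**Figure D2:**
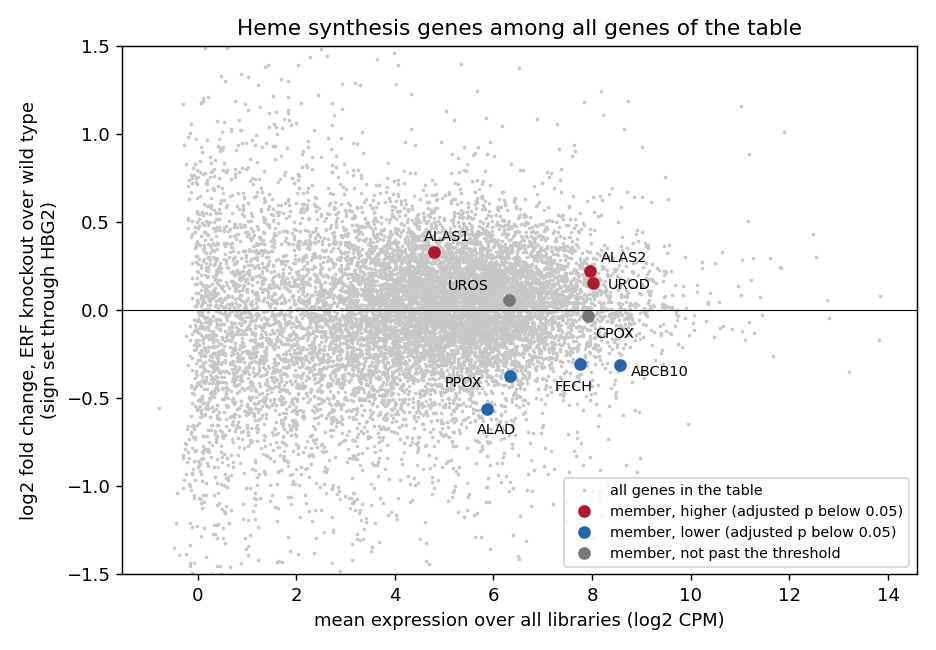
Log2 fold change (ERF knockout over wild type, sign set through HBG2) against mean log2 CPM for all genes of the authors' deposited table (grey) and the 9 members (coloured by call); 117 genes beyond an absolute log2 fold change of 1.5 lie outside the frame. The members lie within the cloud of all genes, between -0.56 and 0.33, most of them at high expression.

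All 9 members lay above the median of all genes in mean expression per kilobase of exon, which was 2.36 log2 CPM. From high to low this level was 6.86 log2 CPM for ALAS2, 6.48 log2 CPM for UROD and for ABCB10, and 6.22 log2 CPM for CPOX. FECH followed at 5.59 log2 CPM per kilobase, PPOX at 4.13, ALAD at 3.56, ALAS1 at 3.46 and UROS at 3.06. No spread over libraries can be put on these levels, so neighbours in the order cannot be told apart. The exon length counts every annotated isoform, which lowers the value of genes such as UROS, whose annotated exons add up to 9.53 kb. The called members included both highly and moderately expressed genes, and direction did not follow compartment: the 6 mitochondrial members held 2 higher and 3 lower genes, and the 3 cytosolic members held 1 higher and 1 lower.

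Carriers and chaperones that serve heme synthesis leaned lower. Of 16 measured genes for porphyrin and iron transport and for the control of ALAS in mitochondria, 7 were lower, 1 was higher and 8 did not pass the threshold, with a median log2 fold change of -0.17. Over all genes 25.9% were lower and 24.9% higher, with a median of -0.0019, the background for this list and the others below. With fold changes centred on genes of at least 5 log2 CPM, the split over all genes was 2566 higher and 3532 lower. LONP1, a mitochondrial protease that degrades ALAS1, had the largest decrease of the list, at -0.75 (SE 0.06, edgeR adjusted p = 5.88e-06, from the authors' deposited table). SLC25A38, the importer of glycine for ALAS2, was lower, at -0.37 (edgeR adjusted p = 9.44e-05, from the authors' deposited table). TMEM14C, which is needed for the porphyrin to reach the matrix in mouse erythroid cells, was lower, at -0.34 (edgeR adjusted p = 0.00246, from the authors' deposited table).

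SLC25A40 and SLC25A39, related carriers that bring glutathione into mitochondria, were lower and higher, at -0.45 and 0.35 in the authors' deposited table. SLC25A37, the erythroid mitoferrin, had a log2 fold change of -0.12 (interval -0.26 to 0.03, edgeR adjusted p = 0.159, from the authors' deposited table). CLPX, an unfoldase that acts on ALAS, stood at 0.07 in the authors' deposited table (edgeR adjusted p = 0.275). SLC25A38, the importer of the substrate glycine, and TMEM14C were lower while ALAS1 and ALAS2 were higher. The call of ALAS2 was lost with an adjusted p below 0.01 and with a minimum absolute log2 fold change of 0.25. Of the mitochondrial iron importers, SLC25A28, mitoferrin 2, was lower, at -0.32 (edgeR adjusted p = 0.0056, from the authors' deposited table), and SLC25A37 did not pass the threshold.

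**Figure D3:**
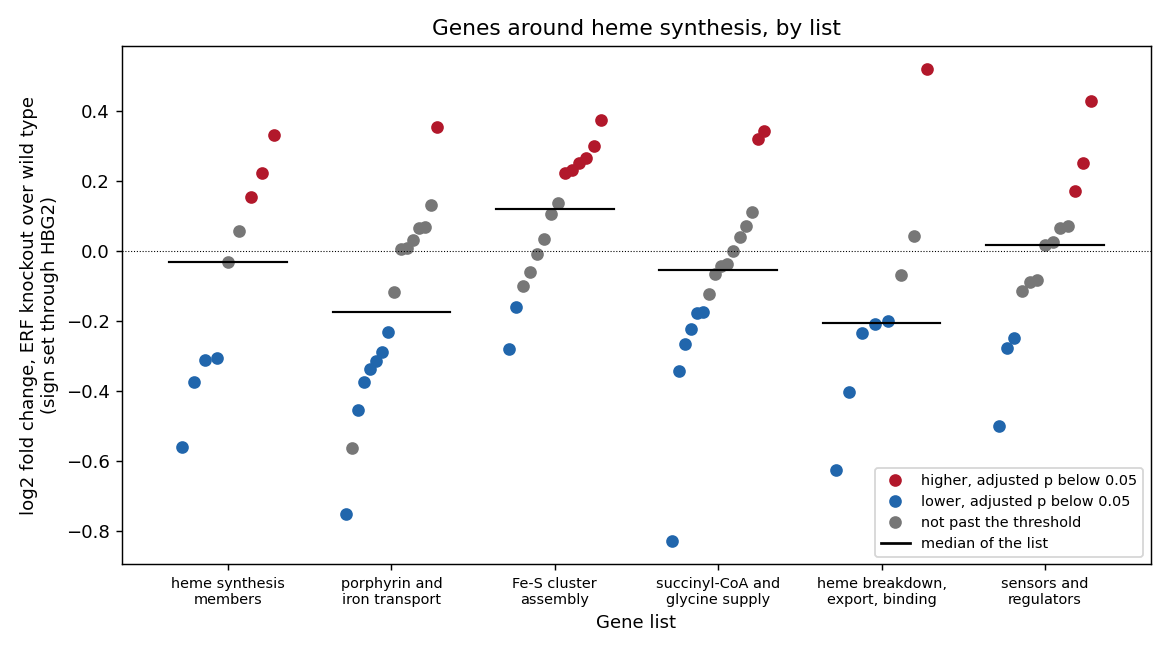
Log2 fold change (ERF knockout over wild type, sign set through HBG2) of each measured gene in 6 lists around heme synthesis, each point 1 gene of the authors' deposited table, coloured by call, with the list's median as a bar. The transport list has 7 lower genes and 1 higher, whereas the iron-sulfur list has 6 higher and 2 lower.

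Genes that assemble iron-sulfur clusters, the other mitochondrial use of iron, leaned higher. The 14 measured genes included 6 that were higher, 2 that were lower and 6 that did not pass, and their median log2 fold change was 0.12. ISCA1, a late-acting assembly factor, was higher at 0.37 in the authors' deposited table (edgeR adjusted p = 0.000104); GENCODE 29 names 5 pseudogenes of it, so the value is uncertain. GLRX5, a glutaredoxin that hands clusters on, stood at 0.30 and the scaffold ISCU at 0.25 in the authors' deposited table, both called. The exons of GLRX5 share 18.2% of their bases with other genes, so its value is uncertain. IBA57, which acts with ISCA1, was lower, and the authors' deposited table puts it at -0.28. Human FECH itself carries an iron-sulfur cluster.

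The supply of succinyl-CoA and glycine had 2 higher and 6 lower genes of 16, with a median log2 fold change of -0.05. SHMT2, the mitochondrial enzyme that makes glycine from serine, had the largest decrease of all genes listed here, 1.78-fold, at -0.83 (SE 0.05, edgeR adjusted p = 1.26e-06, from the authors' deposited table). Its exons share 9.5% of their bases with other genes, which leaves some uncertainty in this value. OGDH and DLD, subunits of the complex that makes succinyl-CoA, parted, at 0.34 and -0.34 in the authors' deposited table. IDH3A stood at 0.32 and IDH2, a further isocitrate dehydrogenase, at -0.27 in the authors' deposited table. The exons of IDH3A share 38.9% of their bases with other genes, which makes its value uncertain.

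Heme breakdown, export and binding had 1 higher and 5 lower genes of 8, with a median log2 fold change of -0.21. HMOX1, the inducible heme oxygenase that heme itself switches on, had a log2 fold change of 0.04 (interval -0.18 to 0.26, edgeR adjusted p = 0.748, from the authors' deposited table). HMOX2, the constitutive form, was higher at 0.52 (SE 0.09, edgeR adjusted p = 0.000806, from the authors' deposited table). The heme transporter SLC48A1 was lower at -0.63 and the heme-binding protein HEBP1 at -0.41 in the authors' deposited table. The exons of HEBP1 share 12.6% of their bases with another gene, so the value of HEBP1 is uncertain. BLVRA, a biliverdin reductase, was lower at -0.23, and HEBP2 at -0.21 in the authors' deposited table.

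Sensors of heme and iron and regulators of ALAS split evenly, with 3 higher and 3 lower of 13 and a median log2 fold change of 0.02. That split depends on the normalization: with fold changes centred on genes of at least 5 log2 CPM, 8 of the list were called, against 6. BACH1, a repressor that heme inactivates, stood at -0.08 in the authors' deposited table (edgeR adjusted p = 0.324). EIF2AK1, the heme-regulated kinase that halts translation when heme is short, stood at 0.02 in the authors' deposited table (edgeR adjusted p = 0.791). GATA1 had a log2 fold change of -0.12 (interval -0.24 to 0.01, edgeR adjusted p = 0.103, from the authors' deposited table). NFE2L2, the stress factor NRF2, was lower at -0.50, and NFE2L1 at -0.25 in the authors' deposited table. The exons of NFE2L2 share 20.9% of their bases with other genes, which makes its value uncertain. For EIF2AK1 and NR1D1 this share was 9.6% and 9.5%. The nuclear receptors NR1D1 and NR1D2, which bind heme, stood at 0.43 and -0.28, and the coactivator PPARGC1B at 0.25 in the authors' deposited table.

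Hemoglobin is the main use of heme in these cells, and erythroid markers were measured beside the 3 higher and 4 lower members. Of the 14 erythroid markers, 8 were higher, 1 was lower and 5 did not pass, and the median log2 fold change was 0.17. The globin chaperone AHSP stood at 0.29 and the membrane protein gene EPB42 at 0.17, against 0.22 for ALAS2, in the authors' deposited table. TFRC, the transferrin receptor that brings in iron, stood at 1.01 and the anion exchanger SLC4A1 at 1.77 in the authors' deposited table. The state of maturation of the cultures is not given in the labels, and its part in the values of the heme enzymes was not tested.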

How the data were processed

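RNA from 3 ERF knockout and 2 wild-type samples was sequenced from Illumina TruSeq libraries, per the labels' protocols. The submitters' processing notes list edgeR 2.6.12, HTSeq, TopHat2 2.0.4, Cuffdiff, SAMtools and hg19/GRCh37, without roles; no source used here gives the filter, normalization or strand setting. The columns that the authors deposited are, per the file headers, log2 fold change, mean log2 CPM, an F score, the p-value and its adjusted form, 1 row a gene. Of its 11979 rows, 3 name no gene, hold 21.5% of the CPM and were left out of all counts. Adjusted p-values recomputed by Benjamini-Hochberg differed by at most 0.676%.

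Deposited fold changes were multiplied by -1, which makes HBG2 higher in the knockout. The standard error (SE) was derived as the size of the log2 fold change over the root of F, and 95% intervals use the t distribution with 10.3 degrees of freedom implied by F and p. Both are approximations. Steps were checked on simulated data built from the same relations, which tests the calculation and not how well the approximations hold. Exon lengths and overlaps came from GENCODE 29 (lengths for 11712 genes) and promoters from RefSeq (GRCh38.p14). The table gives no coordinates. Python 3.11.15, SciPy 1.17.1 and pandas 2.3.3 were used.

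The members and lists were chosen with earlier results of these data known. All members were named; in each other list, up to 5 called genes by size of change, plus SLC25A37, SLC25A38, TMEM14C, CLPX, BACH1, EIF2AK1, GATA1 and HMOX1. SLC25A28, erythroid examples, UROS's exon length and B4GALT3 were picked after their values were seen. FDX1L, FLVCR2 and PPARGC1A were not analysed here. Some genes that the rule names are not reported here; list counts and medians include them.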

Additional observations from a re-analysis of the deposited data

How the results depend on the processing

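No paired analysis was possible because the table holds no values per library; leaving out a library was likewise not possible. Under 7 alternatives, 57 of 63 values of members stayed on their side of the threshold and 6 did not. No direction turned, which was fixed in advance: only centring alters fold changes, by medians too small to reverse a member. With an adjusted p below 0.01, ALAS2 (0.22), UROD (0.15) and ABCB10 (-0.31) were no longer called, leaving 1 member higher. With fold changes centred on genes of at least 5 log2 CPM, whose median was 0.03, UROD (0.12) was not called. With a minimum absolute log2 fold change of 0.25, ALAS2 (0.22) and UROD (0.15) were not called, leaving 1 member higher. These follow from the stricter limits and the shift. Of the other lists, iron-sulfur cluster assembly had 4 calls with an adjusted p below 0.01 and 5 with the minimum change, against 8. Heme breakdown, export and binding had 3 under either, against 6, and succinyl-CoA and glycine supply had 5 with the minimum change, against 8. Adjusting over gene rows only, a minimum of 1 log2 CPM, unadjusted p-values and centring on all genes changed no call of a member. The 4 lower members kept their calls except ABCB10, as given. Without values per library, precision rests on the derived errors, a median of 0.06 for members and 0.07 for all genes.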

Other observations

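The row of the authors' deposited table for reads outside any annotated gene had a log2 fold change of -0.17 under the sign used here (edgeR adjusted p = 0.0117), and the rows for reads not uniquely aligned and for ambiguous reads stood at 0.05 and 0.03 (edgeR adjusted p = 0.295 and 0.411).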
